A study of Homo sapiens with 12 samples.

Results

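The integrin subunits and laminin chains form the adhesion system examined here. All rows of the deposited count table whose gene symbol was one of 37 named genes were taken, out of 60623 genes in the table. Of these, 26 encode integrin subunits and 11 encode laminin chains, and the rows were taken by symbol alone. The symbols came with earlier results of these data in view.

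The cells were A549, an established line from a human lung adenocarcinoma, in 4 stable derivatives, and RNA was sequenced after enrichment of polyadenylated RNA. The lines were made by lentiviral infection and hygromycin selection: V carried the empty vector with its EF1a promoter, WT carried HA-tagged wild-type AHR, SA carried HA-AHR with S489A, which cannot be phosphorylated at that serine, and SD carried HA-AHR with S489D, which mimics the phosphorylated serine. AHR, the aryl hydrocarbon receptor, is a ligand-activated transcription factor, and all 4 lines kept their own AHR gene. Each line gave 3 libraries labelled as biological replicates, 12 in all, and the study asked which genes set SD cells apart. Each construct was present in 1 line only, so the effect of a construct and other differences between the lines cannot be told apart. The labels do not say how the replicate cultures were grown, and p-values measure only the spread between these libraries.

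Integrins are receptors at the cell surface made of an alpha and a beta subunit. The pairing decides whether a receptor binds collagen, laminin, or matrix proteins with an RGD motif such as fibronectin and vitronectin. Laminins are trimers of an alpha, a beta and a gamma chain that build the basement membrane on which epithelial cells sit. Epithelial cells hold on to it through ITGA3 paired with ITGB1 at focal contacts and ITGA6 paired with ITGB4 in hemidesmosomes.

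The library totals ranged from 7844045 to 11765576 expected counts, so that 3 counts, the limit a count of 0 allows, correspond to 0.255 to 0.382 CPM, the count scaled to the size of the library. This limit covers counting error only, while the 95% intervals of fold changes come from the edgeR fit and include the spread between libraries. The level of AHR was 65.8 to 74.3 CPM in V and 202 to 285 CPM in the 3 AHR lines. Reads of the overlapping gene ENSG00000283321, listed at 0 in V, added 69.6 to 217 CPM in those lines, and with them WT had a mean of 469 CPM, SA 393 CPM and SD 296 CPM. Not all epithelial markers were present: KRT7, KRT8, KRT18 and CDH1 ranged from 103 to 3330 CPM over all libraries, whereas EPCAM stayed between 0.381 and 1.75 CPM and KRT19 at or under 0.536 CPM. Summed, the 6 epithelial markers were at 7620 to 8017 CPM in V and at 5767 to 6517 CPM in the AHR lines, with KRT8, KRT18 and CDH1 lower in all 3 AHR lines (adjusted p at most 3.84e-05 with edgeR). Against V, KRT7 was called lower in SD but not in WT or SA. KRT7 was also lower in SD than in WT (adjusted p = 0.0309 with edgeR). The part of this shift in the adhesion results was not tested.

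A549 cells expressed a small set of these genes at a high level. Levels of different genes are compared per kb of merged exons. The highest were LAMA5, a laminin alpha chain of mature basement membranes, at 144 CPM per kb, ITGB1, the beta subunit shared by most integrins, at 130 CPM per kb, and ITGA3, the main laminin-binding alpha subunit of epithelia, at 97.7 CPM per kb. ITGB4 (65.8 CPM per kb), ITGB5 (62.8 CPM per kb) and LAMC1 (60.9 CPM per kb) followed. Divided by the length of 1 canonical transcript instead, ITGB1 came first, at 507 CPM per kb, ahead of ITGA3 and LAMA5. Not divided by length, 11 of the 37 genes were at or above 100 CPM in all 12 libraries and 16 at or above 10 CPM.

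The remaining genes were low. In all, 20 genes stayed under 10 CPM in every library, among them most of the leukocyte integrins, and 5 (ITGA8, ITGA9, ITGAD, LAMA1 and LAMB4) stayed under 1 CPM. The counts of ITGA8, ITGA9 and ITGAD were at or under 3 in every library. The edgeR filter on low counts kept 31 genes in at least 1 of the 6 comparisons made and 28 in all 6. It kept ITGA8, ITGA9, ITGAD, ITGB6, LAMA1 and LAMB4 in none, ITGA1 only in comparisons between AHR lines, LAMA2 only against V, and ITGB7 only in WT against SA. In bulk RNA, fewer cells of a type and less RNA per cell cannot be told apart.

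**Figure D1:**
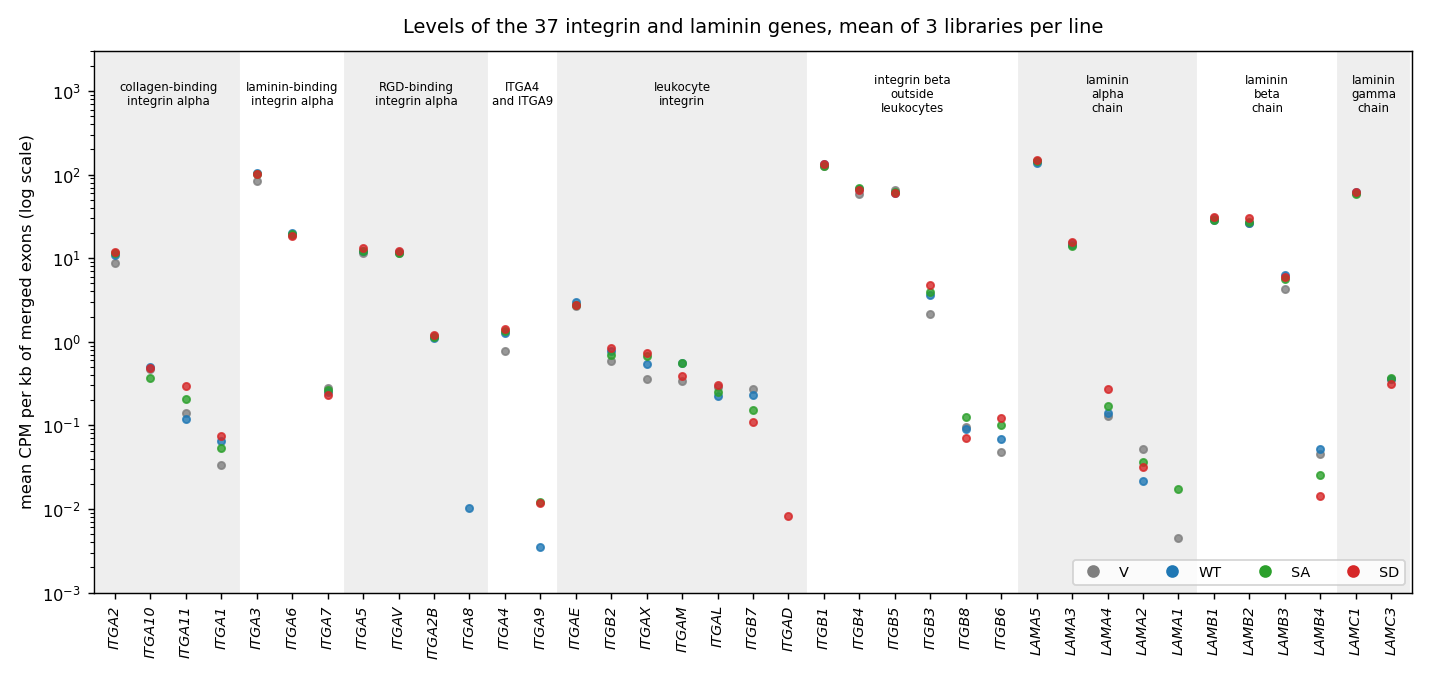
Mean level of each of the 37 genes in each line, in CPM per kb of merged exons on a log axis, grouped by role; each point is the mean of 3 libraries and a mean of 0 is not drawn. LAMA5, ITGB1 and ITGA3 are highest, near or above 100 CPM per kb, and in most of the abundant genes the 4 lines lie on top of one another.

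Against V, the lines with an AHR construct had higher levels of 6 to 7 of these genes, and none was lower. In WT, 6 of the 29 genes tested rose (ITGA2, ITGA3, ITGA4, ITGB3, ITGB4 and LAMB3), beside 2.31% of the 14772 genes tested that were higher and 2.93% that were lower in the same comparison. In SA, 7 of 29 rose (the same 6 and ITGAX), beside 3.88% of 14913 genes higher and 3.29% lower. In SD, 6 of 29 rose (ITGA2, ITGA3, ITGA4, ITGB3, LAMB3 and ITGAX), beside 2.92% of 14890 genes higher and 2.49% lower. The test was edgeR's quasi-likelihood test, two-sided, with Benjamini-Hochberg adjustment over all genes tested, and a gene with an adjusted p under 0.05 is said to have risen or fallen.

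No gene of the set was lower under this test. At an unadjusted p under 0.05, ITGB5 and LAMA2 were lower in WT, none in SA and ITGB5 in SD, and DESeq2 called ITGB5 lower in WT (adjusted p = 0.0411). Over the 29 genes tested, WT had a median log2 fold change of 0.06, SA of 0.05 and SD of 0.08, where that over all genes lay within 0.01 of 0. Of the 14571 genes tested in all 3 comparisons with V, 134 (0.920%) were higher in all 3 and 189 (1.30%) lower, and ITGA2, ITGA3, ITGA4, ITGB3 and LAMB3 were among the 134. The 3 comparisons share the V libraries, so they are not independent of one another.

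**Figure D2:**
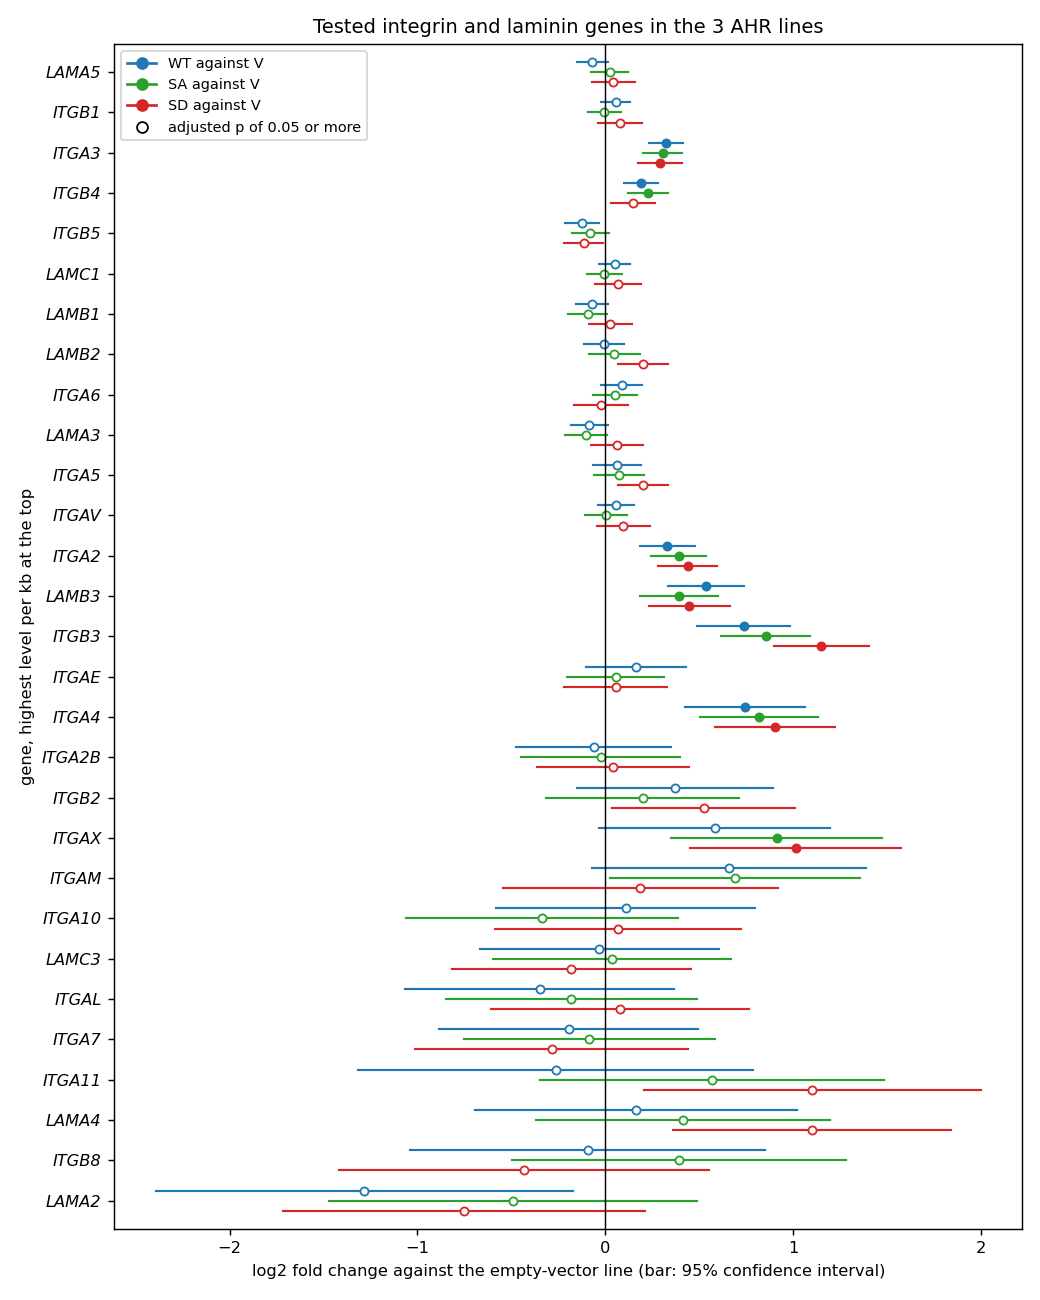
Log2 fold changes of the 29 tested genes in WT, SA and SD against V with 95% confidence intervals, ordered by level per kb; filled points have an adjusted p under 0.05. The filled points lie to the right of 0 and belong to ITGA2, ITGA3, ITGA4, ITGB3, ITGB4, LAMB3 and ITGAX, while the intervals widen towards the rarer genes at the bottom.

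Among the collagen-binding alpha subunits, ITGA2, which forms the collagen receptor of epithelial cells and platelets with ITGB1, was the only abundant member. It lies on chromosome 5, at 52989340 to 53094779 on the plus strand of GRCh38. Its level was 73.2, 62.2 and 73.2 CPM in the V libraries, 83.0, 94.4 and 84.5 CPM in WT, 96.5, 86.3 and 91.1 CPM in SA, and 104, 93.3 and 85.8 CPM in SD. Every AHR library was above every V library, and the 3 AHR lines overlapped one another. V had a mean of 69.5 ± 6.38 CPM (± standard deviation, n = 3, here and below), WT 87.3 ± 6.22 CPM, SA 91.3 ± 5.08 CPM and SD 94.2 ± 8.95 CPM. The rise against V was 1.26-fold in WT (log2 fold change 0.33, standard error 0.07, adjusted p = 0.00377), 1.31-fold in SA (0.39, standard error 0.07, adjusted p = 0.000578) and 1.36-fold in SD (0.44, standard error 0.08, adjusted p = 0.000512). ITGA2 stayed called in each of the 12 alternative analyses of each comparison, with adjusted p of at most 0.042.

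The other collagen-binding subunits were rare. ITGA1, ITGA10 and ITGA11 lay between 0.309 and 4.39 CPM, and none was called against V. ITGA11, a collagen receptor best known from fibroblasts, was at 0.309, 2.65 and 1.58 CPM in V and at 2.30, 3.11 and 4.28 CPM in SD, and the lines overlapped (log2 fold change 1.10, standard error 0.44, adjusted p = 0.159).

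Among the laminin-binding alpha subunits, ITGA3 rose and ITGA6 did not pass the test. ITGA3, on chromosome 17 at 50055968 to 50090481 on the plus strand, was at 814, 830 and 794 CPM in V, 1105, 971 and 982 CPM in WT, 1098, 933 and 986 CPM in SA, and 1081, 967 and 931 CPM in SD. All AHR libraries were above all V libraries, and the AHR lines overlapped. Its rise was 1.252-fold in WT (log2 fold change 0.32, standard error 0.04, adjusted p = 1.12e-05), 1.24-fold in SA (0.31, standard error 0.05, adjusted p = 0.000218) and 1.22-fold in SD (0.29, standard error 0.06, adjusted p = 0.00164). All alternatives kept these calls, with adjusted p of at most 0.0241. ITGA6, the hemidesmosomal partner of ITGB4, stayed between 112 and 141 CPM over all libraries, with log2 fold changes of 0.09, 0.05 and -0.02 in WT, SA and SD. ITGA7, the laminin receptor subunit of muscle, lay between 1.247 and 2.80 CPM.

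The RGD-binding alpha subunits showed no called change. ITGAV, which pairs with ITGB3, ITGB5 and other beta subunits, lay between 206 and 265 CPM, with log2 fold changes of 0.06, 0.00 and 0.10 in WT, SA and SD. ITGA5, the fibronectin receptor subunit, was at 85.9 ± 2.42 CPM in V and 98.5 ± 5.44 CPM in SD, and did not pass the test (log2 fold change 0.20, standard error 0.06, adjusted p = 0.0748). ITGA2B, the platelet subunit that pairs with ITGB3, lay between 5.39 and 8.11 CPM.

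ITGA4, which pairs with ITGB1 or ITGB7 and binds VCAM1 and fibronectin, showed one of the larger rises. It lies on chromosome 2 at 181457202 to 181538940 on the plus strand. Its level was 8.43, 8.49 and 7.57 CPM in V, 14.1, 14.7 and 12.2 CPM in WT, 14.9, 13.1 and 15.2 CPM in SA, and 17.6, 13.4 and 14.7 CPM in SD. All AHR libraries were above all V libraries, and the AHR lines overlapped. The level rose 1.67-fold in WT (log2 fold change 0.74, standard error 0.16, adjusted p = 0.00281), 1.76-fold in SA (0.82, standard error 0.15, adjusted p = 0.000774) and 1.87-fold in SD (0.90, standard error 0.16, adjusted p = 0.000403). The calls held in all alternatives, with adjusted p of at most 0.0223. ITGA4 shares 2813 exon bases with CERKL on the opposite strand, whose level was 1.65 to 2.73 CPM in V and 1.77 to 4.72 CPM in the AHR lines. The strand setting of the libraries is not given in the sources used here, and reads of antisense genes could then not be told apart.

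AHR binds DNA with its partner ARNT at elements with the core GCGTG. This core was searched on both strands (GCGTG or CACGC) in the RefSeq promoter windows of GRCh38.p14, which run from 250 bases before to 50 bases after a start site. Of the 37 genes, 26 matched a window and 11 of these (42.3%) held the core in at least 1 window, beside 11077 of 27305 genes (40.6%) with a window in the whole table. ITGA3, ITGA7, ITGA9, ITGAD, ITGAL, ITGAX, ITGB2, ITGB3, ITGB4, LAMA1 and LAMC3 had no entry. Of the genes that rose against V, ITGA2, ITGA4 and LAMB3 had one. Stretches of the windows of these 3 genes are shown because the genes rose together in all 3 AHR lines and differ in this core, which is in capitals. Those of ITGA2 and LAMB3 lie before the annotated start of the gene, whereas that of ITGA4 lies inside the annotated gene, before the RefSeq start site at 181457386. A match is a description of these letters, not a site of binding. They read 5′ to 3′ along each gene's strand, at chr5:52989102-52989339 (plus strand) for ITGA2, chr2:181457338-181457366 (plus strand, 29 bases around the core) for ITGA4, and chr1:209652426-209652675 (minus strand) for LAMB3.
ITGA2: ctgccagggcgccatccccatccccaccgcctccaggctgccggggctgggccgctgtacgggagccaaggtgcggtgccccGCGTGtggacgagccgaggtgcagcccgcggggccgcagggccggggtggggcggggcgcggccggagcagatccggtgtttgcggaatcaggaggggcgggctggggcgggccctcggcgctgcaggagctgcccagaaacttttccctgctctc
ITGA4: gcgcctccgcacCACGCccgggaccccac
LAMB3: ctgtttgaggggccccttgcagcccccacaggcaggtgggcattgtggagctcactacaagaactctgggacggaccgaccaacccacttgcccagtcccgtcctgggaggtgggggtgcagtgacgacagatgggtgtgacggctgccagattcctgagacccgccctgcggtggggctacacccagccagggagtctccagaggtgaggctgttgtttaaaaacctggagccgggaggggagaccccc
The core began at position -168 from the RefSeq start site of ITGA2 and at -36 from that of ITGA4, where it was read from the opposite strand, and the letters were in none of the windows of LAMB3.

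Of the 6 integrin beta subunits outside leukocytes, ITGB3 rose in all 3 AHR lines and ITGB4 in WT and SA. ITGB6 and ITGB8 were at 2.47 CPM or less in every library. ITGB1 was at 1908, 1782 and 1868 CPM in V, 1925, 1974 and 1879 CPM in WT, 1871, 1872 and 1799 CPM in SA, and 2103, 1959 and 1801 CPM in SD. Its libraries overlapped between V and each AHR line. The log2 fold change was 0.06 in WT (95% interval -0.02 to 0.13, adjusted p = 0.488), -0.005 in SA (-0.09 to 0.08, adjusted p = 0.968) and 0.08 in SD (-0.04 to 0.20, adjusted p = 0.527).

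ITGB5, which binds vitronectin together with ITGAV, had the lowest log2 fold change of the genes at or above 100 CPM in WT and in SD, while LAMA3 and LAMB1 had lower ones in SA (-0.10 and -0.09). It was at 428, 421 and 447 CPM in V, 409, 399 and 382 CPM in WT, 407, 425 and 394 CPM in SA, and 391, 401 and 403 CPM in SD. All WT and SD libraries were below all V libraries, and SA overlapped V. The log2 fold change was -0.12 in WT (95% interval -0.21 to -0.04, adjusted p = 0.101), -0.08 in SA (-0.18 to 0.02, adjusted p = 0.368) and -0.12 in SD (-0.22 to -0.01, adjusted p = 0.232), and DESeq2 called the WT value (adjusted p = 0.0411).

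ITGB4, the laminin receptor subunit of hemidesmosomes, rose slightly in WT and SA. It lies on chromosome 17 at 75721328 to 75757818 on the plus strand. It was at 414, 393 and 399 CPM in V, 484, 449 and 446 CPM in WT, 512, 440 and 464 CPM in SA, and 479, 432 and 423 CPM in SD. Every AHR library was above every V library. The rise was 1.14-fold in WT (log2 fold change 0.19, standard error 0.04, adjusted p = 0.00679) and 1.17-fold in SA (0.23, standard error 0.05, adjusted p = 0.00557), and SD, at 1.11-fold, did not pass the test (0.15, standard error 0.06, adjusted p = 0.137). The WT call was lost without WT replicate 1 (adjusted p = 0.0618) and with all 12 libraries in one fit (adjusted p = 0.0561). The difference between SD and WT was itself small (log2 fold change -0.05, 95% interval -0.17 to 0.07, adjusted p = 0.825).

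ITGB3 showed the largest rise of the 5 genes called in all 3 lines in SA and SD, and in WT one close to that of ITGA4. It pairs with ITGAV to form a receptor for vitronectin and osteopontin, and lies on chromosome 17 at 47253846 to 47311816 on the plus strand. Its level was 13.1, 17.4 and 14.2 CPM in V, 25.4, 26.5 and 22.4 CPM in WT, 26.5, 25.9 and 28.4 CPM in SA, and 35.6, 27.5 and 35.6 CPM in SD. All AHR libraries were above all V libraries, and the SD libraries were above the WT libraries. The rise against V was 1.67-fold in WT (log2 fold change 0.74, standard error 0.12, adjusted p = 0.000173), 1.81-fold in SA (0.85, standard error 0.12, adjusted p = 1.10e-05) and 2.22-fold in SD (1.15, standard error 0.12, adjusted p = 4.17e-07). The calls held in all alternatives, with adjusted p of at most 0.00484.

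The reads of ITGB3 can be assigned to another gene in part. ITGB3 shares 2266 exon bases on the same strand with ENSG00000259753, a protein-coding entry, and RSEM divides reads between such genes. In SD, ENSG00000259753 was listed at 2.30, 7.08 and 0 CPM, so that the SD library with the least ITGB3 had the most of it. Added together, the levels were 16.4, 17.4 and 16.7 CPM in V, 26.4, 27.6 and 22.4 CPM in WT, 27.2, 27.9 and 28.4 CPM in SA, and 37.9, 34.5 and 35.6 CPM in SD. The sum did not overlap between SD and any other line, and its standard deviation was 1.74 CPM in SD, beside 4.72 CPM for ITGB3 alone. With the counts added, an analysis chosen after seeing the data, the rise against V was 1.51-fold in WT, 1.66-fold in SA and 2.14-fold in SD (adjusted p = 0.000774, 1.75e-05 and 2.45e-08 with edgeR).

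**Figure D3:**
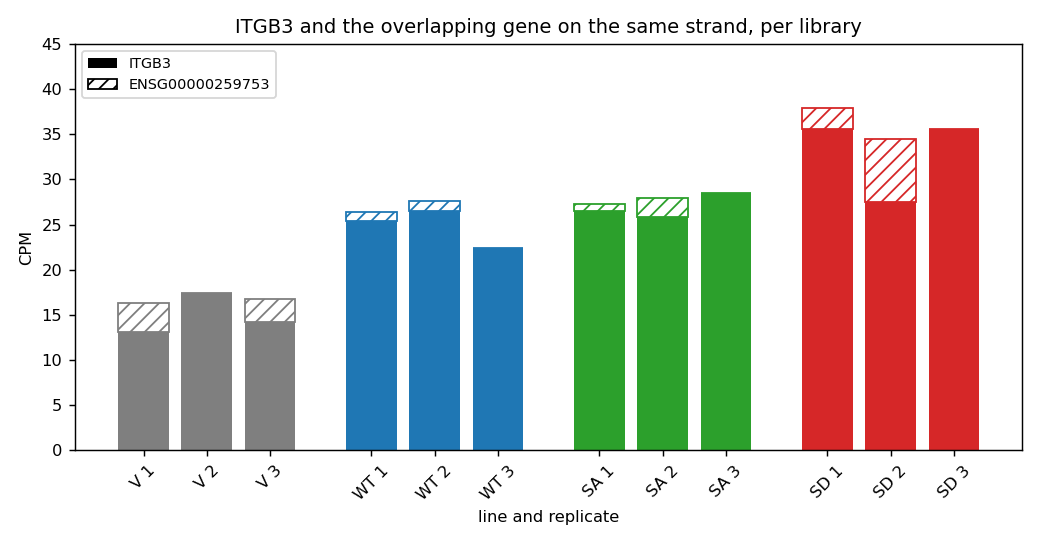
Level of ITGB3 (solid) and of the overlapping gene ENSG00000259753 (hatched) in each of the 12 libraries, in CPM, stacked. The stacked height lies between 16.4 and 17.4 CPM in V, 22.4 and 28.4 CPM in WT and SA, and 34.5 and 37.9 CPM in SD.

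The leukocyte integrins other than ITGAE stayed under 10 CPM in every library, and ITGAX was the member that rose. ITGAX pairs with ITGB2 in myeloid cells and lies on chromosome 16 at 31355134 to 31382997 on the plus strand. It was at 3.09, 2.55 and 2.00 CPM in V, 4.19, 3.95 and 3.34 CPM in WT, 5.41, 4.35 and 4.68 CPM in SA, and 4.204, 5.90 and 5.34 CPM in SD. All AHR libraries were above all V libraries. The rise was called in SA (1.88-fold, log2 fold change 0.91, standard error 0.27, adjusted p = 0.0405) and in SD (2.02-fold, 1.01, standard error 0.27, adjusted p = 0.0258), and WT did not pass the test (1.499-fold, 0.58, standard error 0.30, adjusted p = 0.323). The SA call was lost when any 1 of the 6 libraries was left out and with DESeq2 (adjusted p = 0.0528 to 0.174). The SD call was lost with DESeq2 and without V replicate 2 or 3 or SD replicate 2 or 3 (adjusted p = 0.076 to 0.132).

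Other leukocyte genes gave little signal. Among leukocyte markers, CD14 was at 11.4 to 22.4 CPM and rose in SD (log2 fold change 0.60, adjusted p = 0.00947). PTPRC and LYZ were each at 0.171 CPM in 1 SA library and listed at 0 in the other 11, and CD3E was listed at 0 in all 12. ITGB2, the partner of ITGAX, was at 4.35 ± 1.18 CPM in V and 6.24 ± 1.135 CPM in SD (log2 fold change 0.52, standard error 0.24, adjusted p = 0.244). ITGAM, ITGAL and ITGAE were not called, and ITGAE, which pairs with ITGB7 to bind E-cadherin, was the most abundant of the group per kb, at 2.81 CPM per kb. Its level was 14.6 to 23.1 CPM over all libraries. ITGAE shares 427 exon bases with HASPIN on the opposite strand, which had a mean of 21.2 CPM.

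**Figure D4:**
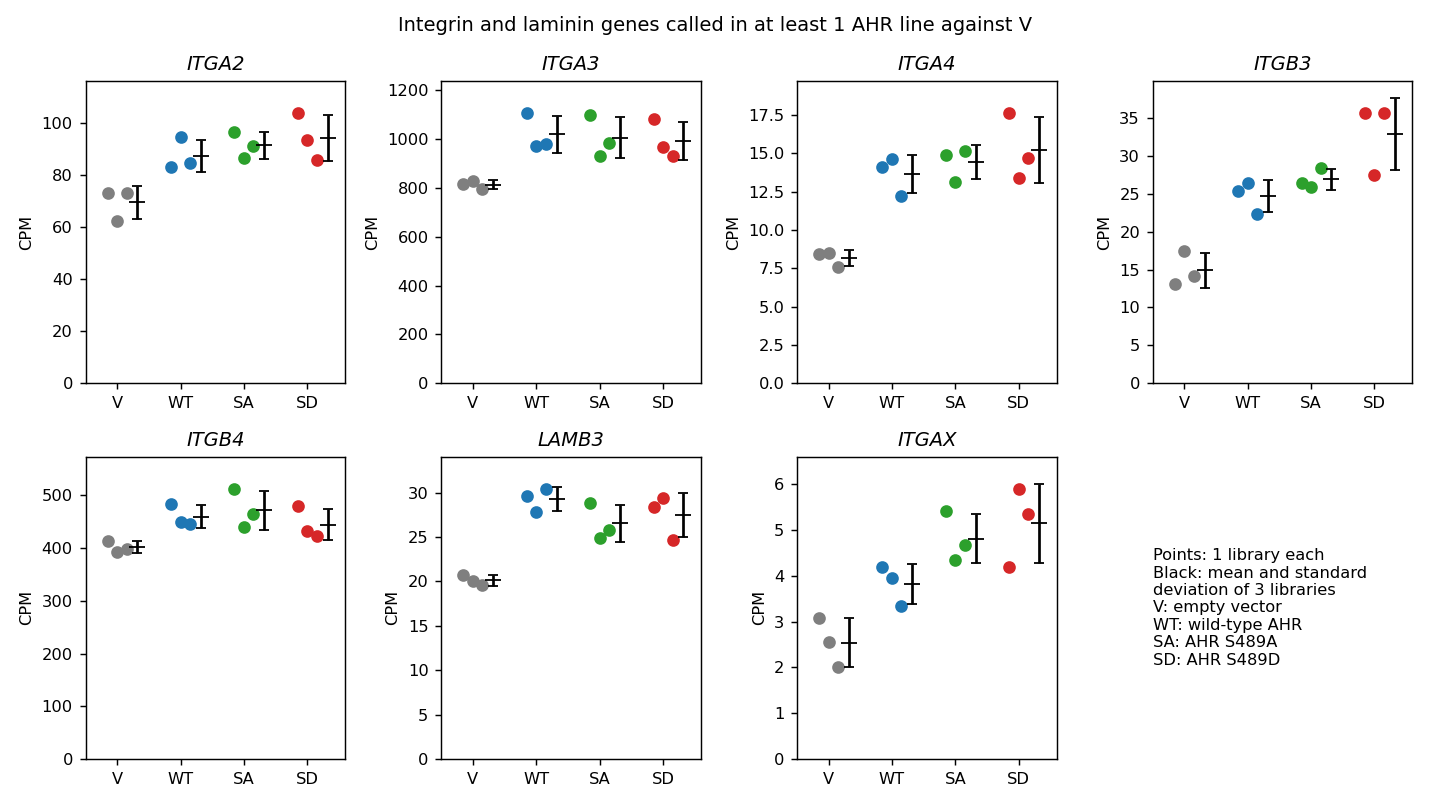
Level of the 7 genes called in at least 1 AHR line, in CPM from 0, with 1 point per library and the mean and standard deviation of 3 libraries in black. In each panel all 9 AHR libraries lie above the 3 V libraries, and only in ITGB3 is SD set above the other AHR lines in 2 of its 3 libraries.

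Among the laminin chains, LAMB3 rose in all 3 AHR lines and the abundant chains did not. LAMB3 is the beta chain of the laminin that hemidesmosomes bind, and mutations in it cause skin blistering. It lies on chromosome 1 at 209614870 to 209652425 on the minus strand. Its level was 20.8, 20.1 and 19.6 CPM in V, 29.6, 27.8 and 30.4 CPM in WT, 28.9, 24.9 and 25.8 CPM in SA, and 28.4, 29.4 and 24.7 CPM in SD. All AHR libraries were above all V libraries. The rise was 1.45-fold in WT (log2 fold change 0.54, standard error 0.10, adjusted p = 0.000704), 1.31-fold in SA (0.39, standard error 0.10, adjusted p = 0.0147) and 1.36-fold in SD (0.45, standard error 0.11, adjusted p = 0.00947). The SA call was lost with DESeq2 (adjusted p = 0.0739) and without V replicate 3 (0.0627) or SA replicate 1 (0.0576), and the SD call without V replicate 3 (0.0519) or SD replicate 2 (0.0645).

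LAMA5 was at 2080, 2083 and 2011 CPM in V, 2101, 1887 and 1902 CPM in WT, 2277, 2017 and 1981 CPM in SA, and 2296, 2013 and 2037 CPM in SD. V overlapped each AHR line. The log2 fold change was -0.07 in WT (95% interval -0.15 to 0.01, adjusted p = 0.400), 0.02 in SA (-0.08 to 0.12, adjusted p = 0.855) and 0.04 in SD (-0.07 to 0.16, adjusted p = 0.774). LAMA3, the alpha chain that joins LAMB3, lay between 195 and 256 CPM and was not called. LAMB1, LAMB2 and LAMC1, chains of the laminins that many tissues make, lay between 166 and 618 CPM and were not called.

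Taking the abundant genes together, 9 of the 11 at or above 100 CPM in every library (ITGA6, ITGAV, ITGB1, ITGB5, LAMA3, LAMA5, LAMB1, LAMB2 and LAMC1) were called in no comparison with V. Their 27 log2 fold changes lay between -0.12 (ITGB5) and 0.20 (LAMB2), and no 95% interval went below -0.22 or above 0.33. The 11 tested genes under 10 CPM other than ITGAX had log2 fold changes between -1.28 (LAMA2) and 1.10 (ITGA11), with intervals from -2.39 to 2.00 and none was called against V, although ITGAX, at a like level, was called in SA and SD. LAMA4, a laminin alpha chain of vessels and muscle, was at 1.54 ± 0.495 CPM in V and 3.31 ± 0.884 CPM in SD, and did not pass the test (log2 fold change 1.10, standard error 0.36, adjusted p = 0.077).

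Between the AHR lines, no integrin or laminin gene was called when genes were counted as deposited. In SD against WT, 0 of 29 tested genes were called, beside 0.708% of 14828 genes. Unadjusted p was under 0.05 for 5 of them, all higher in SD (ITGA11, ITGB3, LAMA3, LAMA4 and LAMB2), beside 10.6% of all genes. In SD against SA, 0 of 29 were called, beside 0.220% of 15030 genes, and 3 had an unadjusted p under 0.05, all higher in SD (ITGB3, LAMA3 and LAMA4), beside 8.52% of all genes. In WT against SA, 0 of 30 were called, beside 0.0803% of 14942 genes, and ITGA11 alone had an unadjusted p under 0.05 and was lower in WT, beside 7.31% of all genes. DESeq2 called 0 in each of the 3 comparisons, but it gave no adjusted p for some genes and could not call those. Of the genes that rose against V, these were ITGA4, ITGB3, LAMB3 and ITGAX in SD against WT. In SD against SA it was ITGAX, and in WT against SA they were ITGA2, ITGA4, ITGB3, LAMB3 and ITGAX.

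ITGB3 had the lowest adjusted p in SD against WT. The level was 1.33-fold higher in SD than in WT (log2 fold change 0.41, standard error 0.11, 95% interval 0.18 to 0.64, adjusted p = 0.0901) and 1.23-fold higher than in SA (0.29, 95% interval 0.08 to 0.51, adjusted p = 0.414). With the counts of ENSG00000259753 added, the difference from WT was 1.41-fold and passed the test (0.50, 95% interval 0.29 to 0.70, adjusted p = 0.0122). The difference from SA was then 1.29-fold and did not (0.37, 95% interval 0.19 to 0.55, adjusted p = 0.108). Left as deposited, ITGB3 passed in SD against WT without SD replicate 2 (adjusted p = 0.0357) and with every gene of at least 1 count (adjusted p = 0.0157), and its adjusted p over the alternatives ran up to 0.367. AHR with its overlapping gene was lower in SD than in WT, as given above, and the part of this in the difference was not tested.

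None of the other 6 genes that rose against V was called between the AHR lines. Their 18 log2 fold changes between these lines lay between -0.33 and 0.43, with both ends from ITGAX, their 95% intervals ran from -0.83 to 0.93, and their adjusted p was at least 0.559. ITGA11 was at 1.28 ± 0.434 CPM in WT, 2.24 ± 0.0526 CPM in SA and 3.23 ± 0.992 CPM in SD (SD against WT: log2 fold change 1.36, standard error 0.38, adjusted p = 0.104), and was called when every gene with at least 1 count was kept. LAMB2 was 1.15-fold higher in SD than in WT (0.20, standard error 0.06, adjusted p = 0.163).

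The genes that work with integrins and laminins were counted in 4 further lists, drawn up with earlier results of these data known. The counts of each list stand beside the shares of all genes tested that were higher and lower, which were 2.31% and 2.93% in WT, 3.88% and 3.29% in SA, and 2.92% and 2.49% in SD. Of 35 adaptor and signalling genes, which link integrins to actin and to kinases, 33 were tested against V, and 5 rose and 3 fell in WT, 4 rose and 3 fell in SA, and 1 rose and 2 fell in SD. NEDD9, a docking protein of focal contacts, fell in all 3 lines, from 95.9 ± 2.38 CPM in V to 67.3 ± 7.76 CPM in WT, 62.7 ± 2.93 CPM in SA and 61.6 ± 2.05 CPM in SD (log2 fold changes -0.50, -0.61 and -0.64, adjusted p at most 1.44e-05). TNS4, a tensin that binds beta subunits, fell from 90.7 ± 2.41 CPM to 65.3 ± 8.50 CPM in WT, 67.4 ± 3.62 CPM in SA and 70.5 ± 2.17 CPM in SD (log2 fold changes -0.47, -0.43 and -0.36, adjusted p at most 0.000616). The libraries of V lay above those of the AHR lines for both genes, and no alternative ended these calls.

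Of 21 other basement membrane genes, 15 or 16 were tested against V. In WT 1 rose and 7 fell, in SA 2 rose and 3 fell, and in SD 3 rose and 2 fell. COL4A6, a collagen IV chain, rose in all 3 lines, from 13.6 ± 1.44 CPM in V to 21.1 ± 1.28 CPM in WT, 18.1 ± 0.474 CPM in SA and 26.0 ± 0.936 CPM in SD (log2 fold changes 0.64, 0.42 and 0.94, adjusted p = 0.00108, 0.0412 and 4.24e-06 with edgeR). COL4A4, another collagen IV chain, fell from 9.66 ± 0.750 CPM to 5.65 ± 0.613, 4.89 ± 1.06 and 5.91 ± 2.06 CPM in WT, SA and SD (log2 fold changes -0.77, -0.99 and -0.72). FRAS1, which anchors epithelium to the layer under it, fell from 60.8 ± 3.42 CPM to 48.1 ± 2.71, 44.1 ± 4.65 and 46.1 ± 7.59 CPM (log2 fold changes -0.34, -0.47 and -0.40). The COL4A6 call in SA was lost with DESeq2 and without V replicate 2 or 3 or any SA library (adjusted p = 0.0541 to 0.158). The COL4A4 call was lost in SD in 8 of 12 alternatives (adjusted p up to 0.249), among them each V library left out in turn and SD replicate 2 or 3, and in WT without V replicate 1 or WT replicate 3 (at most 0.0671). The FRAS1 call was lost in WT without WT replicate 3 (0.0537) and in SD without V replicate 3 (0.0627) or SD replicate 3 (0.064).

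All 15 other laminin receptors and integrin-associated membrane proteins were tested. In WT 2 rose and 1 fell, in SA 5 rose and 1 fell, and in SD 3 rose and 0 fell, where 1 was lower at an unadjusted p under 0.05. CD44, a hyaluronan receptor, rose from 428 ± 9.62 CPM in V to 520 ± 5.59 CPM in WT, 526 ± 12.7 CPM in SA and 552 ± 14.0 CPM in SD (log2 fold changes 0.28, 0.30 and 0.37, adjusted p at most 6.90e-05). COL17A1, a transmembrane collagen of hemidesmosomes, rose from 0.800 ± 0.252 CPM to 2.46 ± 0.638, 2.20 ± 0.426 and 2.35 ± 0.657 CPM in WT, SA and SD (log2 fold changes 1.59, 1.44 and 1.55, adjusted p = 0.023, 0.0361 and 0.0299 with edgeR). The call of COL17A1 in WT against V was lost without any V library or WT replicate 1 or 2 and with the replicate block (adjusted p = 0.0547 to 0.122). The call of COL17A1 in SA against V was lost without any V library or SA replicate 2 or 3 and with DESeq2 (0.078 to 0.177), and that in SD against V without any V library or SD replicate 1 or 3 (0.0642 to 0.143).

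Of 19 integrin ligands other than laminins, 15 to 17 were tested. In WT 3 rose and 5 fell, in SA 5 rose and 4 fell, and in SD 5 rose and 4 fell. Of the 6 called in all 3 lines, 4 are named. TNC, a matrix protein of wounds and tumours, rose from 17.6 ± 0.204 CPM in V to 36.9 ± 3.67 CPM in WT, 32.6 ± 1.74 CPM in SA and 36.3 ± 6.39 CPM in SD (log2 fold changes 1.07, 0.89 and 1.05, adjusted p at most 5.76e-07). CCN2, a matricellular protein that binds several integrins, rose from 11.2 ± 2.25 CPM to 17.1 ± 0.540, 17.3 ± 0.693 and 20.1 ± 1.38 CPM (log2 fold changes 0.60, 0.63 and 0.84). The fibrinogen chains FGA and FGG fell: FGA from 13.8 ± 3.31 CPM to 5.98 ± 1.80, 3.62 ± 2.00 and 4.63 ± 0.933 CPM (log2 fold changes -1.18, -1.96 and -1.56), and FGG from 3.02 ± 1.16 CPM to 0.939 ± 0.155, 1.02 ± 0.304 and 0.878 ± 0.246 CPM (-1.66, -1.55 and -1.76). The calls of FGG were lost in all 3 lines without V replicate 1 (adjusted p = 0.116 to 0.168), in WT without WT replicate 1 (0.0651) or 3 (0.0547) and in SA without SA replicate 3 (0.0888). The CCN2 call in WT was lost without V replicate 3 (0.069).

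Between the AHR lines, 6 ligand and basement membrane genes of these lists were called, each higher in SD. Against WT these were 3 of 15 basement membrane and 2 of 16 ligand genes tested, beside 0.513% of all genes higher in SD. None of the 33 adaptor and 15 receptor genes tested was called there. Against SA they were 2 of 16 basement membrane genes, beside 0.160% of all genes higher in SD. None of the 16 ligand, 34 adaptor and 15 receptor genes tested against SA was called. EDIL3, a secreted RGD ligand of integrins with ITGAV, was at 11.9, 12.7 and 13.6 CPM in V, 12.6, 12.3 and 12.7 CPM in WT, 15.7, 19.4 and 18.1 CPM in SA, and 24.3, 25.7 and 23.2 CPM in SD. The SD libraries lay above those of each other line, and SD was 1.95-fold above WT (log2 fold change 0.96, standard error 0.12, adjusted p = 5.49e-05). SPP1, or osteopontin, a ligand of ITGAV with ITGB3, was at 108 ± 8.45 CPM in WT and 142 ± 8.80 in SD (0.40, standard error 0.07, adjusted p = 0.00203). NID2, a nidogen that joins laminin to collagen IV, was at 18.7 ± 0.784 CPM in WT and 26.8 ± 4.07 in SD (0.52, standard error 0.12, adjusted p = 0.0338).

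SMOC1, a calcium-binding protein of basement membranes, was at 33.9 ± 2.07 CPM in WT and 43.7 ± 2.12 in SD (log2 fold change 0.37, standard error 0.09, adjusted p = 0.0398). The collagen IV chain COL4A5 was at 90.03 ± 4.08 CPM in V, 101 ± 4.39 CPM in WT, 106 ± 10.1 CPM in SA and 141 ± 16.9 CPM in SD, and was higher in SD than in WT (0.47, standard error 0.07, adjusted p = 0.00084) and than in SA (0.41, standard error 0.08, adjusted p = 0.0295). COL4A6 was higher in SD than in SA (0.52, standard error 0.10, adjusted p = 0.0295) and did not pass the test against WT (0.30, standard error 0.10, adjusted p = 0.249). SPP1 and SMOC1 were not above V in SD (log2 fold changes 0.14 and -0.01, adjusted p = 0.223 and 0.970 with edgeR). In WT against SA, edgeR called 0 genes of the 4 lists, beside 0.0803% of all genes, and DESeq2 called 1, SPP1, lower in WT. This comparison tested 34 adaptor, 16 basement membrane, 15 receptor and 16 ligand genes. Among them, 2 were higher and 13 lower at an unadjusted p under 0.05 with edgeR, beside 7.31% of all genes in either direction.

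The calls in SD differed in how far they rested on single libraries. The calls of EDIL3, SPP1 and COL4A5 in SD against WT held in all alternatives that gave an adjusted p. The call of NID2 in SD against WT was lost without any WT library (adjusted p = 0.0677 to 0.158) or SD replicate 1 (0.188) and with all 12 libraries in one fit (0.0925), and the SMOC1 call when any of the 6 libraries was left out (0.0532 to 0.187). Against SA, the COL4A5 call was lost without SA replicate 2 or 3 or SD replicate 1 or 2 (0.0538 to 0.211), and the COL4A6 call without any SA library or SD replicate 1 or 2 (0.0622 to 0.163) and with DESeq2 (0.0602).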

How the data were processed

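Expected counts of 12 RNA-seq libraries were used. Per the study's methods, reads passed through Trimmomatic 0.39 and RSEM on GRCh38 transcripts, and the authors deposited RSEM's expected counts per gene, in which reads shared by genes are split. The annotation release, read layout and strand setting are not given in the sources used here. A second deposited table, holding the authors' own edgeR fold changes, p-values and q-values, was not used.

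Expected counts were rounded. The 6 comparisons used only the 6 libraries concerned, in R 4.3.3 with edgeR 4.0.16 (filterByExpr with a minimum count of 10 and a minimum total of 15, TMM, quasi-likelihood test, two-sided, Benjamini-Hochberg adjustment over the 14772 to 15030 genes tested). The fit was also run on counts simulated for WT and V from edgeR's own model. Such a run cannot show whether that model holds for these data. CPM use the library totals of 7844045 to 11765576 counts multiplied by their TMM factors, and a pair of 3-library groups cannot reach an exact permutation p under 0.1. Exon lengths and overlaps came from GENCODE v44, in which 28 of the 37 genes have the deposited start and end, promoter windows from RefSeq. Replicates were no copies of one another (chi-square per degree of freedom 2.50 to 6.88).

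The members and lists were chosen with earlier results of these data known. Values in every library are given for members called in at least 1 comparison and the 3 highest others per kb, and genes of other lists were named where called between AHR lines or, up to 4 a list, in all 3 lines against V. ITGA1, ITGA5, ITGA11, LAMA4 and some others were named after their values were seen. Alternatives were other low-count filters, DESeq2's size factors, DESeq2 1.42.0, all 12 libraries in one fit, a replicate block and each library left out. Figures were drawn with matplotlib.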

Additional observations from a re-analysis of the deposited data

Results flagged for a closer look

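Among the integrin and laminin genes and the neighbouring lists, 2 AHR lines differed in 7 cases (edgeR, adjusted p under 0.05). Each construct was in 1 line only, so its effect cannot be told apart from other differences between the lines. All 7 were genes of the neighbouring lists rather than integrin or laminin genes. Outside these lists, the epithelial marker KRT7 was called lower in SD than in WT (adjusted p = 0.0309 with edgeR). Between SD and WT, the difference on the log2 scale was 0.96 for EDIL3, 0.40 for SPP1, 0.52 for NID2, 0.37 for SMOC1 and 0.47 for COL4A5. Between SD and SA it was 0.41 for COL4A5 and 0.52 for COL4A6. All 3 SD libraries lay above all 3 libraries of the other line in each of the 7 cases. AHR with its overlapping gene also differed between these lines, with means of 469 CPM in WT, 393 CPM in SA and 296 CPM in SD. The part of this in the 7 differences was not tested.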

How the results depend on the processing

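Of 72 counts of called integrin and laminin genes under the 12 alternatives of each comparison, 69 were within 1.5 times the main count. Against V the counts over alternatives were 5 to 7 in WT, 5 to 7 in SA and 4 to 8 in SD. In SD against WT the count of 0 became 2 (ITGA11 and ITGB3) with every gene of at least 1 count, 1 (LAMB2) with the replicate block, 1 (ITGB3) with the counts of ENSG00000259753 added, and 0 to 1 when libraries were left out in turn. In the 4 further lists 47 of 288 counts moved beyond 1.5 times, 5 of them with the block, among them basement membrane genes in SD against WT to 6 and adaptors in WT against V to 5. Over all genes, same-numbered libraries deviated together weakly or not at all (correlations of -0.0375 to 0.106, over 0.1 in 1 of 18 pairs), so the numbers were not taken as pairs. Between the AHR lines these correlations were all above 0, at 0.0171 to 0.0549. Several genes of the set shared a pattern. Replicate 1 was the highest library of WT, SA and SD for ITGA3 (1105, 1098 and 1081 CPM) and LAMA5 (2101, 2277 and 2296 CPM). The same held for ITGB4 (484, 512 and 479 CPM), LAMB1, LAMB2, LAMC1 and ITGA5. It did not hold in every AHR line for the other genes at or above 100 CPM (ITGA6, ITGAV, ITGB1, ITGB5 and LAMA3). ITGA2 showed it in SA and SD but not in WT. The part of this pattern in the calls was not tested. Of 228 alternatives for called genes of the set, 209 kept the call, 19 lost it and 0 reversed. Log2 fold changes near 0 changed sign when libraries were left out: LAMA5 in SA against V (-0.040 to 0.061), LAMA5 in SD against V (-0.022 to 0.077) and ITGB1 in SA against V (-0.031 to 0.017, and 0.00426 with every gene of at least 1 count). Between AHR lines, ITGA3 in SD against WT ranged from -0.103 to 0.025, and in SD against SA the ranges were -0.083 to 0.050 for ITGA3, -0.033 to 0.162 for ITGA4, -0.029 to 0.112 for ITGA2 and -0.00468 to 0.224 for ITGAX. In WT against SA they were -0.042 to 0.086 for ITGA3, -0.138 to 0.00354 for ITGA4 and -0.087 to 0.024 for ITGB4. The cause of these changes was not tested.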
